A study of Mus musculus with 9 samples.

Results

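The genes described here are those of the cell division cycle, the mitotic spindle and DNA replication, chosen by their symbols: cyclins A, B, D and E, the Cdc and Cdca names, MCM helicase and ORC origin proteins, RFC clamp loader subunits, SMC proteins, polo-like and Aurora kinases, Bub checkpoint proteins, CENP centromere proteins, kinesins of the Kif series, and Pttg1, Psrc1 and Gas2l3. Pttg1, Psrc1 and Gas2l3 were taken in by their own names and not through a family, and members were chosen with earlier results of these data known. Of 15096 genes with a single symbol in the probe annotation, 134 matched. Of these, 119 were measured at a probe number that is not a multiple of 8 (of 13407 such genes). The other 15 were measured only at multiples of 8, where ratios ran low over the whole table, and are given apart. The symbols also bring in genes with other work, among them 22 kinesins placed outside the spindle group, 8 genes of Cdc42 and its effectors, and 9 other genes such as Cdc5l and Mcm3ap. Both Kif16bos and Smc2os are antisense transcripts, and Kif4-ps is a pseudogene.

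RNA from SJL/J males was set against RNA from C57BL/6J males, both inbred strains, aged 8 weeks, on 9 arrays with 3 arrays each for liver, brain and kidney. Each array carried a pool of 5 SJL/J mice in channel 1 and a pool of 5 C57BL/6J mice in channel 2, with no treatment stated in the labels. The 3 arrays of a tissue were technical repeats of the same pair of pools with no dye swap. Every SD below (n = 3 arrays) and every p-value therefore measures the spread between arrays and not between mice, and a dye effect of a probe cannot be told apart from the strain difference within a tissue. Values are log2 ratios, SJL/J over C57BL/6J: a positive value is higher in the SJL/J pool, and 1 unit is 2-fold. The direction and the log base are inferred, as stated under the processing. Ratios of bulk tissue cannot tell fewer cells of a type apart from less RNA per cell, and with no intensities used here neither the level of a gene nor the identity of a tissue could be checked.

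A dividing cell licenses its replication origins with the origin recognition complex and the MCM helicase, copies its DNA behind a sliding clamp that the RFC complex loads, holds the sister copies together with cohesin, and separates them on a spindle of microtubules and kinesin motors. Cyclins with their kinases drive the steps, Cdc25 phosphatases release the kinases, and the spindle checkpoint holds back the anaphase-promoting complex (APC) until every centromere is attached. In adult liver, brain and kidney most cells are outside the cycle, and many kinesins serve transport along microtubules or in cilia instead.

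Brain replicate 3 stood apart. Over all 13407 genes it correlated with brain replicates 1 and 2 at r = 0.21 and 0.31, whereas those correlated with each other at r = 0.70, and it correlated with the kidney arrays at 0.36, 0.31 and 0.38. Its residual SD was 0.30, against 0.17 to 0.22 on the other arrays. Over the 119 genes its r with brain replicates 1 and 2 was 0.38 and 0.47. Brain results are given with it and, where a call changes, without it. Very low values of 3 genes stood on that array and not on its partners. Plk4, the kinase of centriole copying, had 0.07, -0.17 and -2.77 on brain replicates 1 to 3, Cenpa, the histone H3 variant of centromeres, 0.65, 0.03 and -2.71, and Rfc5, a clamp loader subunit, -0.34, -0.01 and -1.68. In limma's moderated test these 3 brain means missed the threshold, with adjusted p = 0.126, 0.331 and 0.0921.

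Strain differences of these genes were small for most and large for a few. A gene counted as having risen or fallen in SJL/J where limma's adjusted p, taken over all 13407 genes, was under 0.05. In liver 11 of the 119 rose and 17 fell (9.24% and 14.3%), beside 10.5% and 11.9% of all genes tested. In brain 10 rose and 14 fell (8.4% and 11.8%, against 7.73% and 6.62% of all genes). In kidney 16 rose and 12 fell (13.4% and 10.1%, against 14.1% and 8.05%). In either direction this made 23.5%, 20.2% and 23.5% of the members in liver, brain and kidney, beside 22.4%, 14.3% and 22.1% of all genes. The members that fell in each tissue include Pttg1, Psrc1 and Gas2l3, which were taken in by name.

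Calls of at least 2-fold were few. In liver Rfc3 and Mcm5 were higher and Pttg1 and Cenpm lower by this size (2 and 2 members, 1.68% and 1.68%, against 1.47% and 1.57% of all genes). In brain Rfc3 was higher and Pttg1, Smc3 and Psrc1 lower (1 and 3 members, 0.84% and 2.52%, against 0.44% and 0.418%). In kidney Rfc3, Mcm7 and Cenpv were higher and Smc3 and Gas2l3 lower (3 and 2 members, 2.52% and 1.68%, against 0.612% and 0.276%). Pttg1, Psrc1 and Gas2l3 were taken in by name, so the shares called lower are no evidence of an excess. The median of the members was -0.01 in liver, -0.03 in brain and 0.04 in kidney, beside 0.00, 0.03 and 0.06 over all genes. Within 0.5 log2 units of 0 lay 103 members in liver, 102 in brain and 102 in kidney (86.6%, 85.7% and 85.7%, against 87.4%, 91.8% and 89.2% of all genes). Small ratios were thus no trait of these genes. At least 1 tissue gave a call for 55 members (46.2%, against 46.3% of all genes), and 64 members had none (against 53.7% of all genes). With brain replicate 3 left out, 26 members were called in brain, 12 higher and 14 lower, and 21 of the 24 calls were kept, while 18.3% of all genes were called, against 14.3% with it. The 3 lost were Gas2l3, Cdc42ep3 and Cdc42ep4. The 5 gained were Cenpe (0.96, adjusted p = 0.000416), Kif2a (0.61, adjusted p = 0.00215), Kif9 (0.39, adjusted p = 0.036) and Mcm2 (0.42, adjusted p = 0.0157), all higher, and Mcm4 (-0.44, adjusted p = 0.0106), lower, in limma. On brain replicate 3 each of these 5 had the opposite sign to its partners. All arrays share 1 estimate of the spread per gene, so leaving out brain replicate 3 also changed the other tissues. Then 38 members were called in liver and 39 in kidney, against 28 and 28. Of all genes 28.7% and 29.4% were called there, against 22.4% and 22.1%.

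**Figure D1:**
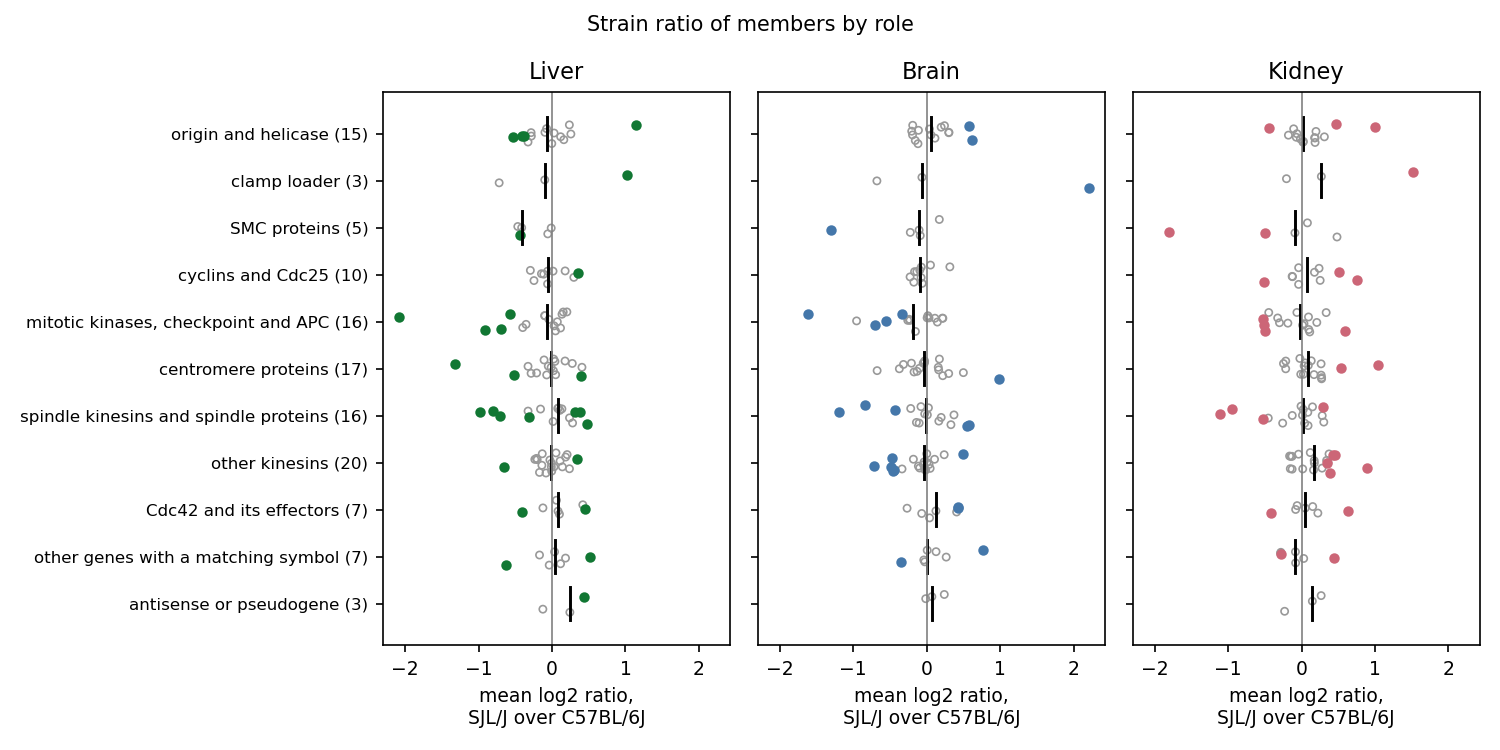
Mean log2 ratio (SJL/J over C57BL/6J, x axis) of the 119 genes in liver, brain and kidney, by role (rows). Filled points passed the test, open points did not, and the black bar is the median of the role. Single genes lie far out: Rfc3 at 2.21 in brain, Smc3 at -1.80 in kidney and Pttg1 at -2.08 in liver.

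The clamp loader held the member with the highest ratios in brain and kidney. Rfc3, a small subunit of replication factor C, had 1.09, 0.43 and 1.56 in liver, 1.68, 3.13 and 1.82 in brain, and 1.48, 1.59 and 1.45 in kidney. All 9 arrays lay above 0, the kidney arrays close together and the brain arrays spread by the high replicate 2. It rose, with means of 1.03 ± 0.57 in liver, 2.21 ± 0.80 in brain and 1.51 ± 0.08 in kidney (SD, n = 3, adjusted p = 0.014, 0.000589 and 0.00274, limma). Among all genes its mean was the 7th highest in brain and the 5th highest in kidney. The liver call ended without liver replicate 1 (1.0, adjusted p = 0.0771) or liver replicate 3 (0.76, adjusted p = 0.119). The other subunits measured had no call. Rfc2 had -0.10 in liver, -0.07 in brain and -0.20 in kidney, and Rfc5 had -0.72 ± 0.35 in liver, -0.68 ± 0.89 in brain and 0.27 ± 0.21 in kidney. The spread used to test Rfc5 in every tissue includes its very low value on brain replicate 3. Its missed threshold in liver is thus no evidence of an equal level. The large subunit Rfc1, and Rfc4, were spotted only at multiples of 8 and are described with those probes.

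Of the genes of spindle and chromosome segregation, Pttg1, Psrc1, Gas2l3 and Kif20b fell in all 3 tissues (4 members or 3.36%, against 0.753% of all genes). Of these, Pttg1, Psrc1 and Gas2l3 were taken into the set by their own names, with earlier results of these data known. The share is thus no evidence of an excess over all genes. Pttg1 is securin, which inhibits separase until anaphase. It had -2.34, -1.90 and -2.02 in liver, -1.85, -1.94 and -1.06 in brain, and -0.33, -0.43 and -0.82 in kidney. Every liver and brain array lay below every kidney array. Pttg1 fell, with means of -2.08 ± 0.23 in liver, -1.62 ± 0.48 in brain and -0.53 ± 0.26 in kidney (SD, n = 3, adjusted p = 6.78e-06, 0.000283 and 0.0394, limma). The kidney call ended without kidney replicate 1 (-0.63, adjusted p = 0.0815), kidney replicate 2 (-0.58, adjusted p = 0.108), kidney replicate 3 (-0.38, adjusted p = 0.238) or liver replicate 3 (-0.53, adjusted p = 0.0546).

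Psrc1, a protein of spindle microtubules, had -0.62, -0.52 and -1.80 in liver, -1.44, -1.13 and -1.02 in brain, and -1.26, -0.08 and -1.49 in kidney. Every array was below 0, but liver replicate 3 and kidney replicate 2 lay far from their partners. It fell, with means of -0.98 ± 0.71 in liver, -1.20 ± 0.22 in brain and -0.94 ± 0.75 in kidney (adjusted p = 0.0231, 0.0155 and 0.0289, limma). The liver call ended without liver replicate 3 (-0.57, adjusted p = 0.194), the brain call without brain replicate 1 (-1.07, adjusted p = 0.0834) or brain replicate 2 (-1.23, adjusted p = 0.078), and the kidney call without kidney replicate 1 (-0.78, adjusted p = 0.166) or kidney replicate 3 (-0.67, adjusted p = 0.201).

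Gas2l3 links actin and microtubules during cytokinesis. Its values were -0.63, -0.82 and -0.95 in liver, -1.26, -0.03 and -1.24 in brain, and -1.07, -1.12 and -1.13 in kidney, with the kidney arrays nearly equal and brain replicate 2 near 0. It fell, with means of -0.80 ± 0.16 in liver, -0.84 ± 0.70 in brain and -1.11 ± 0.03 in kidney (adjusted p = 0.0125, 0.0162 and 0.0032, limma). The liver call ended without liver replicate 2 (-0.79, adjusted p = 0.0622) or liver replicate 3 (-0.72, adjusted p = 0.0824) and the brain call without brain replicate 1 (-0.63, adjusted p = 0.104) or brain replicate 3 (-0.65, adjusted p = 0.0609). Kif20b, a kinesin of late mitosis and cytokinesis, was lower by less: it had -0.36, -0.16 and -0.41 in liver, -0.44, -0.49 and -0.37 in brain, and -0.50, -0.72 and -0.34 in kidney. All 9 arrays were below 0. It fell, with means of -0.31 ± 0.14 in liver, -0.43 ± 0.06 in brain and -0.52 ± 0.19 in kidney (adjusted p = 0.0391, 0.015 and 0.00434). Leaving out arrays ended the liver call without kidney replicate 1 (-0.31, adjusted p = 0.0579), liver replicate 1 (-0.29, adjusted p = 0.167), liver replicate 2 (-0.39, adjusted p = 0.0512) or liver replicate 3 (-0.26, adjusted p = 0.196). The brain call ended without brain replicate 1 (-0.43, adjusted p = 0.0586) or brain replicate 2 (-0.40, adjusted p = 0.0944).

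Rfc3, Cenpv and Kif18a rose in all 3 tissues (3 members or 2.52%, against 0.664% of all genes). Cenpv, a protein of centromeres and the cytokinetic midzone, had 0.46, 0.43 and 0.31 in liver, 0.70, 0.91 and 1.34 in brain, and 1.22, 1.11 and 0.77 in kidney. The liver arrays lay below all brain and kidney arrays. It rose, with means of 0.40 ± 0.08 in liver, 0.98 ± 0.33 in brain and 1.03 ± 0.23 in kidney (adjusted p = 0.042, 0.00114 and 0.000554, limma). Its other probe, at a multiple of 8, had -0.36 ± 0.07 in liver, 0.10 ± 0.29 in brain and 0.23 ± 0.17 in kidney, and the liver value passed as lower (adjusted p = 0.0449). Averaging both probes gave 0.02 in liver (adjusted p = 0.919). The liver call also ended without brain replicate 2 (0.40, adjusted p = 0.0542), kidney replicate 2 (0.40, adjusted p = 0.0586), liver replicate 1 (0.37, adjusted p = 0.172), liver replicate 2 (0.38, adjusted p = 0.151) or liver replicate 3 (0.44, adjusted p = 0.0991). The brain call of Cenpv ended with the brain arrays fitted alone (0.98, adjusted p = 0.0557).

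Kif18a, the kinesin that limits the movement of aligned chromosomes, had 0.38, 0.31 and 0.25 in liver, 0.51, 0.66 and 0.56 in brain, and 0.32, 0.47 and 0.09 in kidney. The values were above 0 on every array, lowest on kidney replicate 3. It rose, with means of 0.31 ± 0.06 in liver, 0.57 ± 0.08 in brain and 0.29 ± 0.19 in kidney (adjusted p = 0.0327, 0.00386 and 0.0439, limma). The brain call was kept with each array left out but ended with the brain arrays fitted alone (0.57, adjusted p = 0.0805). The liver call ended without liver replicate 1 (0.28, adjusted p = 0.157), liver replicate 2 (0.31, adjusted p = 0.11) or liver replicate 3 (0.34, adjusted p = 0.0877). In kidney the call ended with arrays centred on the median gene (0.24, adjusted p = 0.0903), and without brain replicate 2 (0.29, adjusted p = 0.0517), kidney replicate 1 (0.28, adjusted p = 0.176), kidney replicate 2 (0.20, adjusted p = 0.27), liver replicate 1 (0.29, adjusted p = 0.0576), liver replicate 2 (0.29, adjusted p = 0.0556) or liver replicate 3 (0.29, adjusted p = 0.0588).

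Each of these 7 genes lost at least 1 of its calls when some array was left out, and each kept its sign on 9 of 9 arrays. Of the 119, 8 lay above 0 on all 9 arrays and 14 below (6.72% and 11.8%, against 6.55% and 4.61% of all genes). Those below include Pttg1, Psrc1 and Gas2l3, which were taken in by name. Beside the genes named so far, those below 0 were Cdc20, Bub3, Cdca3, Kif2c, Plk2, Orc3, Smc5, Cdc42, Kif27 and Mcm3ap, and those above 0 were Mcm8, Cenpo, Cenpb, Cdca7 and Cdc42se2. A ratio shared by the tissues, tested on 3 tissue means a gene, passed for 0 of 13407 genes after adjustment in limma (0% called; lowest adjusted p = 0.272), while 24 members had an unadjusted p under 0.05 (20.2%, against 13.6% of all genes). With multiples of 8 averaged in, 107 of 15096 genes passed (0.709%), among them Cdca4, Psrc1, Smc1b and Gas2l3 (means of -2.84, -1.04, -1.46 and -0.92, adjusted p = 0.0126, 0.0239, 0.0306 and 0.0403, limma).

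**Figure D2:**
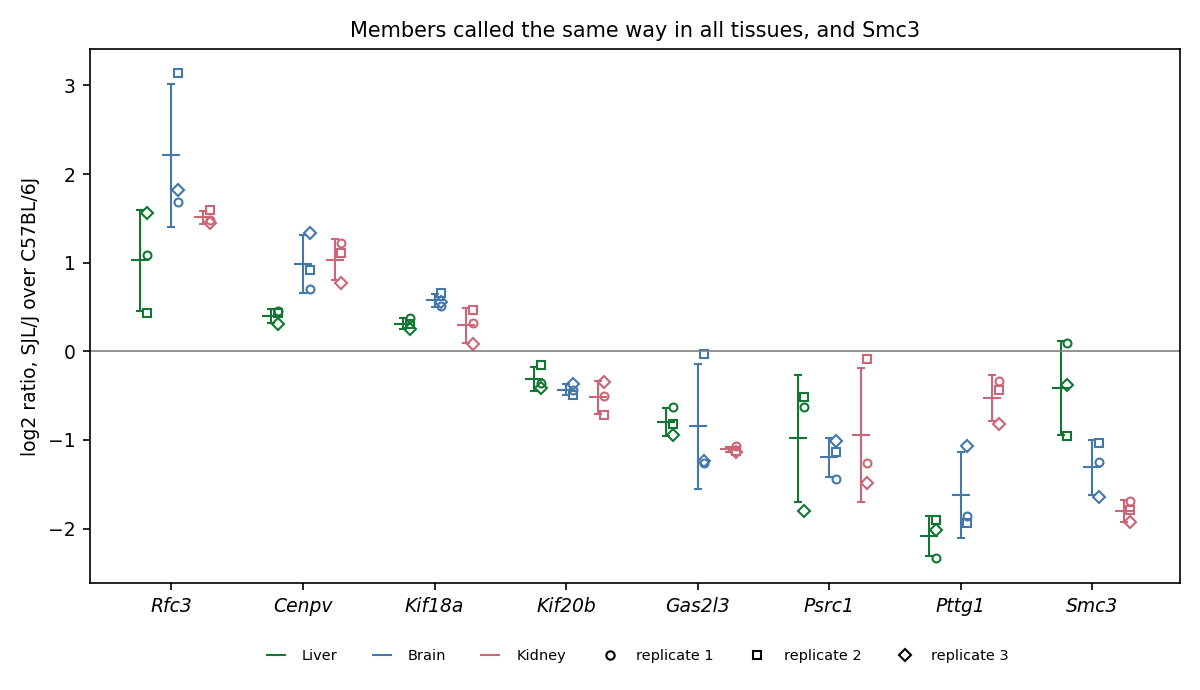
Log2 ratio (SJL/J over C57BL/6J, y axis) on every array, as points by tissue, for the 7 genes called the same way in all 3 tissues and for Smc3. Bars are means and whiskers the SD of 3 arrays. The kidney points of Rfc3 lie between 1.45 and 1.59, and the liver points of Pttg1 between -2.34 and -1.90, below its kidney points.

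The 250 bases before the annotated transcription start of these 7 genes are shown because the genes moved one way in every tissue (RefSeq, assembly GRCm38.p6, 5′ to 3′ on the gene's strand). Capitals mark matches on either strand to CCAAT, to TTTGAA, the cell cycle homology region, or to TTTNNCGC, a loose form of the E2F site. Psrc1 has 2 entries, of which the first is printed.
Rfc3, chr5:151651209-151651458, minus strand: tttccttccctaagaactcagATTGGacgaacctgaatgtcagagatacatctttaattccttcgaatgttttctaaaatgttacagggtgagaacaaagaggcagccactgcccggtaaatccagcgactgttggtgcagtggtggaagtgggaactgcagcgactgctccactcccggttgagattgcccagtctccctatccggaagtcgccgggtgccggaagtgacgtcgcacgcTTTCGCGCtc
Cenpv, chr11:62539262-62539511, minus strand: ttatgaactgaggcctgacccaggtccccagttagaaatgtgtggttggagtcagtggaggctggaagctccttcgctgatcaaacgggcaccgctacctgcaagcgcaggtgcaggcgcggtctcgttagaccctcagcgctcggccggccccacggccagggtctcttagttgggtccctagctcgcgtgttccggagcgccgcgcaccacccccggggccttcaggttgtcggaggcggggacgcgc
Kif18a, chr2:109280488-109280737, plus strand: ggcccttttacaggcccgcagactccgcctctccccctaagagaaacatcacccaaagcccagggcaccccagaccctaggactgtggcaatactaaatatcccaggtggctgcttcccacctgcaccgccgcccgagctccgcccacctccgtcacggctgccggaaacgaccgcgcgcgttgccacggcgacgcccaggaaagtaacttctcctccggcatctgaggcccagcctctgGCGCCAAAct
Pttg1, chr11:43425982-43426231, minus strand: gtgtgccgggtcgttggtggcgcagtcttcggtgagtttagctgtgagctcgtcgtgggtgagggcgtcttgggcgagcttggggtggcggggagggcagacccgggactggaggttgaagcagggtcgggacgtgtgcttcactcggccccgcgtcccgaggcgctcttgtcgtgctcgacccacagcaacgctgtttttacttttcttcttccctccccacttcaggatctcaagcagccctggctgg
Psrc1, chr3:108383554-108383803, plus strand: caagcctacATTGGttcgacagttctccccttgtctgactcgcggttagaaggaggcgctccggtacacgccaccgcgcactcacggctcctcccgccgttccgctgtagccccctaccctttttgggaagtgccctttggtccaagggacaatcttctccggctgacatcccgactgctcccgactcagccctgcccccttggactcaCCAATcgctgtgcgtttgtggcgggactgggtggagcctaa
Gas2l3, chr10:89443968-89444217, minus strand: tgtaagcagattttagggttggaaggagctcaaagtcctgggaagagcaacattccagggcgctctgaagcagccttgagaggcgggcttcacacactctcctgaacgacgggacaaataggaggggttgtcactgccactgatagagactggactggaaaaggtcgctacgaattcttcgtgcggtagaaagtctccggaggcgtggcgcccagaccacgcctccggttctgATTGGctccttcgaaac
Kif20b, chr19:34922108-34922357, plus strand: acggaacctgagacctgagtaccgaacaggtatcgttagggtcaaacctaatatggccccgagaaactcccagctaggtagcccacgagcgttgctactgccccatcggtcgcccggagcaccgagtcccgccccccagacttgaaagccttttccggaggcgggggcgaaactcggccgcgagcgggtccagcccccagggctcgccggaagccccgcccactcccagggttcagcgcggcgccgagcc

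Rfc3 held 1 CCAAT match and 1 TTTNNCGC match, Kif18a 1 TTTNNCGC match, Psrc1 2 CCAAT matches and Gas2l3 1, while Cenpv, Pttg1 and Kif20b held none of the letters searched. None of the 7 windows held TTTGAA. Other forms of the cell cycle homology region were not searched, so whether a window lacks that region was not tested. Promoter entries were found for 119 of the 134 genes. Over these, CCAAT stood in 52.9%, TTTNNCGC in 14.3% and TTTGAA in 18.5%, against 36.3%, 5.25% and 15% of the windows of 17492 protein-coding genes. Of 17 origin and helicase promoters, 6 held TTTNNCGC (35.3%), and of 15 promoters of spindle kinesins and spindle proteins, 5 held TTTGAA (33.3%). These counts describe letters in a window.

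Subunits of the replicative helicase went different ways. The MCM ring opens DNA at origins, and of 15 measured origin and helicase genes 1 rose and 3 fell in liver (6.67% and 20%, against 10.5% and 11.9% of all genes), 2 rose and 0 fell in brain (13.3% and 0%, against 7.73% and 6.62% of all genes), and 2 rose and 1 fell in kidney (13.3% and 6.67%, against 14.1% and 8.05% of all genes). Mcm7, a subunit of the ring, had -0.71, -0.45 and -0.45 in liver, 0.72, 0.72 and 0.30 in brain, and 0.58, 1.35 and 1.09 in kidney. No liver array reached any brain or kidney array. It fell in liver, with a mean of -0.54 ± 0.15, and rose in brain and kidney, with means of 0.58 ± 0.24 and 1.01 ± 0.39 (adjusted p = 0.019, 0.0215 and 0.00109, limma). In liver the call ended without liver replicate 1 (-0.45, adjusted p = 0.128), liver replicate 2 (-0.58, adjusted p = 0.0584) or liver replicate 3 (-0.58, adjusted p = 0.064). The brain call ended without brain replicate 1 (0.51, adjusted p = 0.104) or brain replicate 2 (0.51, adjusted p = 0.132), and the kidney call was kept with each array left out.

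Mcm5, another subunit of the ring, had 1.15, 1.37 and 0.93 in liver, 0.76, 0.21 and -0.07 in brain, and 0.05, 0.48 and 0.00 in kidney. All liver arrays lay above all others, and in liver it rose (1.15 ± 0.22, adjusted p = 0.000381, limma, kept with each array left out). Mcm3 had -0.60, -0.51 and -0.03 and Mcm6 -0.30, -0.64 and -0.30 in liver, and both fell there, with means of -0.38 ± 0.31 and -0.41 ± 0.20 (adjusted p = 0.0271 and 0.0163). The Mcm3 call ended without liver replicate 1 (-0.27, adjusted p = 0.197) or liver replicate 2 (-0.31, adjusted p = 0.152), and the Mcm6 call without liver replicate 2 (-0.30, adjusted p = 0.125). Mcm2 and Mcm4 had no call in any tissue, with means from -0.28 to 0.20, but without brain replicate 3 they passed in brain in opposite directions, as given above. Mcm8, a relative of the ring that acts with Mcm9 in recombination repair, had 0.05, 0.06 and 0.24 in liver, 0.76, 0.45 and 0.62 in brain, and 0.43, 0.44 and 0.55 in kidney. It rose in brain and kidney, with means of 0.61 ± 0.15 and 0.47 ± 0.07 (adjusted p = 0.00241 and 0.00515), both kept with each array left out. The brain call of Mcm8 ended with the brain arrays fitted alone (adjusted p = 0.0807, limma). Among origin genes, Orc3 fell in kidney (-0.44 ± 0.06, adjusted p = 0.0107), a call that ended without kidney replicate 1 or 3. Orc2, Orc4, Orc6, the helicase loader Cdc6, the kinase Cdc7, Mcm9 and Mcm10 had no call, with means from -0.33 to 0.30.

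**Figure D3:**
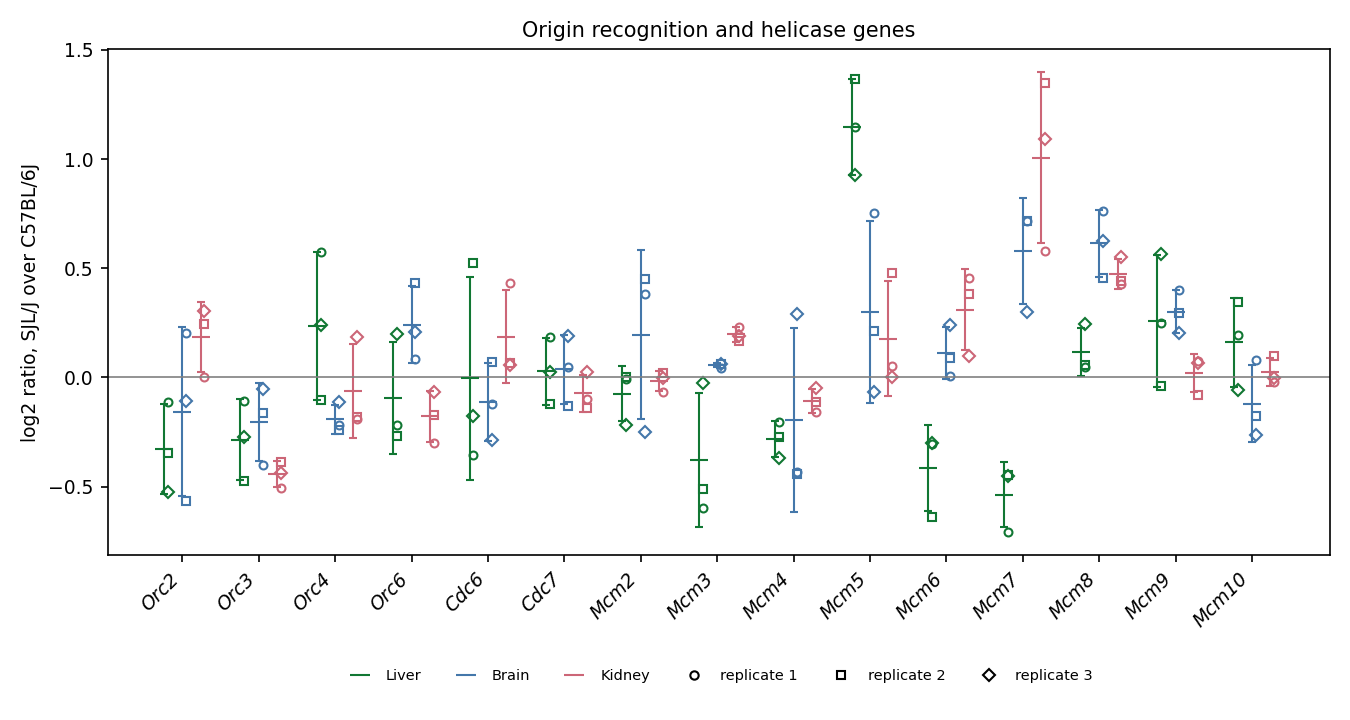
Log2 ratio (SJL/J over C57BL/6J, y axis) on every array, as points by tissue, for the 15 origin and helicase genes. Mcm7 is below 0 on the liver arrays (-0.71 to -0.45) and above 0 on the brain and kidney arrays, and Mcm5 is highest in liver (0.93 to 1.37).

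Smc3, a core subunit of the cohesin ring, had 0.10, -0.95 and -0.38 in liver, -1.25, -1.03 and -1.64 in brain, and -1.68, -1.79 and -1.93 in kidney. It was low on 8 of 9 arrays, and the kidney arrays lay below all others. Smc3 fell in brain and kidney, with means of -1.31 ± 0.31 and -1.80 ± 0.12 (adjusted p = 0.00119 and 0.000165, limma). Its kidney mean was the lowest of all 13407 genes, and both calls were kept with each array left out. The liver mean of -0.41 ± 0.53 missed the threshold (adjusted p = 0.105). Its partner Smc1a had -0.47 ± 0.19 in liver, -0.09 ± 0.37 in brain and 0.48 ± 0.52 in kidney, with no call in a single tissue. Smc5, of the repair complex that it forms with Smc6, fell in liver and kidney, with means of -0.43 ± 0.37 and -0.49 ± 0.05 (adjusted p = 0.026 and 0.0167). The liver call ended without liver replicate 2 or 3 and the kidney call without any kidney array. Smc6 had -0.01 in liver, -0.10 in brain and 0.08 in kidney at its probe away from multiples of 8. Smc2, of condensin, had no call, and its 2 probes disagreed in kidney, with 0.28 ± 0.22 and -0.46 ± 0.11 (adjusted p = 0.052 and 0.00483).

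Of 10 cyclins and Cdc25 phosphatases, 1 rose and 0 fell in liver (10% and 0%, against 10.5% and 11.9% of all genes), 0 rose and 0 fell in brain (0% and 0%, against 7.73% and 6.62% of all genes), and 2 rose and 1 fell in kidney (20% and 10%, against 14.1% and 8.05% of all genes). Ccne2, cyclin E2 of the entry into S phase, had 0.34, 0.59 and 0.13 in liver and rose there (0.35 ± 0.23, adjusted p = 0.0238, limma), a call that ended without liver replicate 1 or 2. Cdc25a, which activates cyclin-dependent kinases at the entry into S phase, had 1.05, 0.30 and 0.93 in kidney and rose there (0.76 ± 0.40, adjusted p = 0.00878). Cdc25c, its counterpart at the entry into mitosis, had 1.05, 0.16 and 0.30 there and rose (0.51 ± 0.48, adjusted p = 0.0357). Kidney replicate 1 was the highest for both. The Cdc25a call ended without kidney replicate 1 (0.61, adjusted p = 0.0765) or kidney replicate 3 (0.67, adjusted p = 0.0649), and the Cdc25c call without kidney replicate 1 (0.23, adjusted p = 0.287) or kidney replicate 3 (0.61, adjusted p = 0.0694). Ccnb2, a mitotic cyclin, had -0.56, -0.53 and -0.43 in kidney and fell (-0.51 ± 0.07, adjusted p = 0.00832), a call that ended without kidney replicate 1 or 2. The 2 probes of Ccnd2, cyclin D2, disagreed, with 0.17 ± 0.06 and -0.32 ± 0.05 in brain (adjusted p = 0.289 and 0.0294) and 0.59 ± 0.26 and -0.24 ± 0.10 in kidney (adjusted p = 0.00266 and 0.0682). Ccna2, Ccnd1, Ccnd3, Ccne1 and Cdc25b had no call, with means from -0.29 to 0.30.

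Among 16 mitotic kinases, checkpoint genes and APC genes, 0 rose and 4 fell in liver (0% and 25%, against 10.5% and 11.9% of all genes), 0 rose and 4 fell in brain (0% and 25%, against 7.73% and 6.62% of all genes), and 1 rose and 3 fell in kidney (6.25% and 18.8%, against 14.1% and 8.05% of all genes), Pttg1 included in each. Pttg1 was taken into the set by name, with earlier results known. Cdc20, the activator of the APC in mitosis, had -0.05, -0.54 and -0.60 in liver, -0.47, -0.72 and -0.92 in brain, and -0.84, -0.08 and -0.59 in kidney. All 9 arrays were below 0, and it fell in brain and kidney, with means of -0.70 ± 0.22 and -0.50 ± 0.39 (adjusted p = 0.0131 and 0.0365, limma). The brain call ended without brain replicate 2 (-0.70, adjusted p = 0.0771) and the kidney call without kidney replicate 1 (-0.34, adjusted p = 0.252) or kidney replicate 3 (-0.46, adjusted p = 0.163). Cdca3, which promotes the entry into mitosis, had -0.62, -1.10 and -0.37 in liver, -0.51, -0.12 and -0.08 in brain, and -0.32, -0.64 and -0.56 in kidney. It fell in liver and kidney, with means of -0.70 ± 0.37 and -0.51 ± 0.17 (adjusted p = 0.00488 and 0.0244). The liver call was kept with each array left out, and the kidney call ended without any kidney array.

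Cdc14b, a phosphatase with a role in the exit from mitosis, had -0.70, -1.07 and -0.97 in liver, -0.34, -0.40 and -0.04 in brain, and 0.20, 0.20 and -0.10 in kidney. The liver arrays lay below all others, and in liver it fell (-0.91 ± 0.19, adjusted p = 0.000196, limma, kept with each array left out). Plk2, a polo-like kinase with roles outside mitosis, had -0.52, -0.38 and -0.82 in liver and fell there (-0.57 ± 0.23, adjusted p = 0.00565), a call that ended without liver replicate 3 (-0.45, adjusted p = 0.0586). In brain the checkpoint genes Bub1 and Bub3 fell, with means of -0.33 ± 0.13 and -0.55 ± 0.45 (adjusted p = 0.035 and 0.032). The Bub1 call ended without liver replicate 1 or 3, brain replicate 1 or 2 or kidney replicate 1 and the Bub3 call without brain replicate 1 or 2, and without brain replicate 3 both held (-0.37 and -0.73). Aurka, the Aurora kinase of spindle poles, had 0.96, 0.60 and 0.23 in kidney and rose there (0.59 ± 0.36, adjusted p = 0.0227), a call that ended without kidney replicate 1 (0.41, adjusted p = 0.176) or kidney replicate 2 (0.59, adjusted p = 0.0952). The other Aurora kinases, Plk1, Plk4, Bub1b, Cdca8 and the APC subunits Cdc16 and Cdc26 had no call.

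The centromere proteins followed no common direction: of 17 measured, 1 rose and 2 fell in liver (5.88% and 11.8%, against 10.5% and 11.9% of all genes), 1 rose and 0 fell in brain (5.88% and 0%, against 7.73% and 6.62% of all genes), and 2 rose and 0 fell in kidney (11.8% and 0%, against 14.1% and 8.05% of all genes). Cenpm, of the constitutive centromere network, had -0.97, -1.35 and -1.66 in liver, -0.27, 0.07 and -0.09 in brain, and 0.43, 0.10 and 0.26 in kidney. The liver arrays lay below all others. It fell in liver (-1.33 ± 0.35, adjusted p = 3.74e-05, limma, kept with each array left out). Cenpl, of the same network, had -0.53, -0.61 and -0.41 in liver and fell (-0.51 ± 0.10, adjusted p = 0.0048), also kept. Cenpo, of the network too, had 0.71, 0.24 and 0.66 in kidney and rose there (0.54 ± 0.26, adjusted p = 0.00464), but not with line and column medians removed (0.25, adjusted p = 0.128). Cenpe, the kinesin of kinetochores, had 0.86, 1.07 and -0.43 in brain (adjusted p = 0.142), and 0.96, adjusted p = 0.000416 without brain replicate 3. Besides Cenpv, the other centromere genes had no call with all arrays.

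Of 16 spindle kinesins and spindle proteins, 3 rose and 4 fell in liver (18.8% and 25%, against 10.5% and 11.9% of all genes), 2 rose and 3 fell in brain (12.5% and 18.8%, against 7.73% and 6.62% of all genes), and 1 rose and 3 fell in kidney (6.25% and 18.8%, against 14.1% and 8.05% of all genes), with Psrc1, Gas2l3, Kif20b and Kif18a among them in each tissue. Psrc1 and Gas2l3 were taken into the set by name, with earlier results known, so the shares that fell are no evidence of an excess. Kif2c, which takes apart microtubule ends at kinetochores, had -1.26, -0.56 and -0.32 in liver, -0.47, -0.04 and -0.14 in brain, and -0.51, -0.57 and -0.28 in kidney. All 9 arrays were below 0. It fell in liver (-0.71 ± 0.49, adjusted p = 0.00777, limma), a call that ended without liver replicate 1 (-0.44, adjusted p = 0.0609). Kif24, a kinesin of the centriole, rose in liver and brain, with means of 0.48 ± 0.23 and 0.54 ± 0.14 (adjusted p = 0.0113 and 0.011), and had 0.02 ± 0.21 in kidney. Its liver call ended without liver replicate 1 or 3 and its brain call without brain replicate 2. Kif18b, a relative of Kif18a, rose in liver (0.39 ± 0.24, adjusted p = 0.0365), a call that ended without any liver array or any kidney array. Its 2 probes had 0.47 ± 0.18 and 0.30 ± 0.30 there (adjusted p = 0.0195 and 0.193). The other 9, among them Kif11, the motor of spindle bipolarity, and Kif23, of the midzone, had no call with all arrays, with means from -0.33 to 0.37, and Kif2a passed in brain without replicate 3.

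Of 20 other kinesins, mostly of transport and cilia, 1 rose and 1 fell in liver (5% and 5%, against 10.5% and 11.9% of all genes), 1 rose and 5 fell in brain (5% and 25%, against 7.73% and 6.62% of all genes), and 5 rose and 0 fell in kidney (25% and 0%, against 14.1% and 8.05% of all genes). No test compared these counts between tissues. Kif1c, a transport motor, had -0.17, 0.33 and 0.46 in liver, -0.01, -0.28 and -0.71 in brain, and 1.18, 0.69 and 0.79 in kidney. The kidney arrays lay above all others, and it rose there (0.89 ± 0.26, adjusted p = 0.0033, limma, kept with each array left out). Kif1b, which carries vesicles and mitochondria, had -0.96, -0.61 and -0.38 in liver, 0.00, -0.24 and -0.10 in brain, and 0.44, 0.21 and 0.19 in kidney. The liver arrays lay below all others, and it fell there (-0.65 ± 0.29, adjusted p = 0.00225, kept). Kif13a, a motor of endosomes, had 0.28, 0.41 and 0.31 in liver, -0.52, -0.60 and -0.28 in brain, and -0.19, -0.01 and -0.18 in kidney. It rose in liver and fell in brain, with means of 0.33 ± 0.07 and -0.47 ± 0.17 (adjusted p = 0.0229 and 0.00868). The liver call ended without any liver array and the brain call without brain replicate 2. Mcm7 and Kif13a were the only 2 of the 119 called in opposite directions (1.68%, against 2.06% of all genes).

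The kinesin-II motor of cilia is built on Kif3a. Kif3a had -1.39, -0.61 and -0.14 in brain and fell (-0.72 ± 0.63, adjusted p = 0.0276, limma). The call ended without brain replicate 1 (-0.38, adjusted p = 0.148) or brain replicate 2 (-0.77, adjusted p = 0.101) and held without brain replicate 3 (-1.0). Its partners Kif3b and Kif3c rose in kidney, with means of 0.45 ± 0.11 and 0.35 ± 0.08 (adjusted p = 0.0159 and 0.014), calls that ended without kidney replicate 1 or 3 for Kif3b and without any kidney array for Kif3c. Kif17, a motor of dendrites and cilia, and Kif16b, of endosomes, rose in kidney too, with means of 0.42 ± 0.18 and 0.38 ± 0.31 (adjusted p = 0.00824 and 0.0296), calls that ended without kidney replicate 1 or 2 for both. Kif27, a kinesin of motile cilia, had -0.41, -0.57 and -0.50 in brain and fell (-0.49 ± 0.08, adjusted p = 0.00475, kept with each array left out). That call ended with the brain arrays fitted alone (adjusted p = 0.097, limma). In brain Kif12 and Kif6 fell and Kif5b, a conventional kinesin, rose, with means of -0.47 ± 0.30, -0.45 ± 0.42 and 0.50 ± 0.37 (adjusted p = 0.0364, 0.0487 and 0.0376). The Kif12 call ended without liver replicate 1 or brain replicate 1 or 2, the Kif6 call without any liver array, brain replicate 1 or 2 or any kidney array, and the Kif5b call without liver replicate 1, brain replicate 1 or 2 or any kidney array. Probes of a gene disagreed in kidney for Kif16b (0.58 ± 0.57, adjusted p = 0.0316, against 0.19 ± 0.10) and Kif13b (0.45 ± 0.20, adjusted p = 0.0167, against -0.12 ± 0.38), where 1 of 2 passed. Of 3 probes of Kif15, a kinesin of the spindle, 1 passed in liver (0.37 ± 0.11, adjusted p = 0.0221) and 1 in kidney (0.31 ± 0.16, adjusted p = 0.04), limma.

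Cdc42, which acts in cell polarity, had -0.60, -0.44 and -0.19 in liver, -0.32, -0.34 and -0.15 in brain, and -0.41, -0.44 and -0.38 in kidney. All 9 arrays were below 0. It fell in liver and kidney, with means of -0.41 ± 0.20 and -0.41 ± 0.03 (adjusted p = 0.0108 and 0.0123, limma). Its 2 probes had -0.18 ± 0.11 and -0.64 ± 0.07 in kidney (adjusted p = 0.271 and 0.000561). With line and column medians removed neither call held (-0.13 in liver and -0.14 in kidney). The liver call also ended without liver replicate 1 or 2 and the kidney call without any kidney array. Of its effectors, Cdc42ep2 rose in liver (0.44 ± 0.18), Cdc42ep3 and Cdc42ep4 in brain (0.42 ± 0.24 and 0.42 ± 0.37), and Cdc42se2 in kidney (0.63 ± 0.57), with adjusted p = 0.0241, 0.0182, 0.0495 and 0.0243 in limma. Without brain replicate 3 both brain calls ended (0.29 and 0.22). The Cdc42ep3 call ended without brain replicate 2 or 3, and the Cdc42ep4 call without any liver array, brain replicate 1 or 3 or any kidney array. The Cdc42ep2 call ended without liver replicate 2 or 3, and the Cdc42se2 call without kidney replicate 1 (0.31, adjusted p = 0.186) or kidney replicate 2 (0.73, adjusted p = 0.059).

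Genes with a Cdc, Cdca or Mcm name that were placed outside the groups above also moved singly. Cdc5l, a splicing factor, had 0.25, -0.07 and 0.37 in liver, 1.02, 1.0 and 0.27 in brain, and -0.26, -0.42 and -0.16 in kidney. It rose in brain (0.76 ± 0.42, adjusted p = 0.00754, limma), with 1.01 without brain replicate 3, and the call ended without brain replicate 1 (0.64, adjusted p = 0.0501) or brain replicate 2 (0.65, adjusted p = 0.0679). Cdc73, of the Paf1 complex of transcription, had 0.74, 0.48 and 0.32 in liver and rose there (0.51 ± 0.21, adjusted p = 0.00581), a call that ended without liver replicate 1. Mcm3ap, which serves mRNA export, fell in liver and brain, with means of -0.63 ± 0.18 and -0.35 ± 0.17 (adjusted p = 0.0016 and 0.043). The liver call was kept with each array left out, and the brain call ended without liver replicate 3, brain replicate 1 or 2 or any kidney array. Cdca7 rose in kidney and its relative Cdca7l fell there, with means of 0.44 ± 0.18 and -0.28 ± 0.11 (adjusted p = 0.00744 and 0.0328). These calls ended without kidney replicate 1 or 2 for Cdca7 and without any kidney array for Cdca7l. The antisense transcript Smc2os rose in liver (0.44 ± 0.08, adjusted p = 0.0323), a call that ended without any liver array. The labels do not give the strand a probe reads.

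Whether the strain ratio depended on the tissue was tested directly. By limma's F-test 24 of the 119 depended on the tissue (20.2%, against 20.6% of all genes). Of these, 9 held under all 14 other settings, namely Cenpm, Mcm7, Pttg1, Cdc14b, Kif13a, Smc3, Kif1b, Kif1c and Cdc5l. Between liver and kidney the ratio of 19 members differed (16%, against 17.7% of all genes), higher in liver for 5 and lower for 14 (against 6.01% and 11.7% of all genes). Between liver and brain it differed for 10 (8.4%, against 11.4%), higher in liver for 4 and lower for 6 (against 5.12% and 6.33%). Between brain and kidney it differed for 5 (4.2%, against 4.61%), higher in brain for 1 and lower for 4 (against 1.59% and 3.02%).

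Cenpm had -1.33 in liver, against -0.10 in brain (difference -1.23, adjusted p = 0.00169, limma) and 0.27 in kidney (difference -1.59, adjusted p = 0.000278). Mcm7 had -0.54 in liver, against 0.58 in brain (difference -1.11, adjusted p = 0.00516) and 1.01 in kidney (difference -1.54, adjusted p = 0.000679). Both were thus lowest in liver. Pttg1 had -2.08 in liver and -1.62 in brain, against -0.53 in kidney (differences -1.56 and -1.09, adjusted p = 0.00157 and 0.028). The difference between liver and brain was -0.47 (adjusted p = 0.219). Smc3 ran the other way: its liver mean of -0.41 lay above -1.31 in brain (difference 0.89, adjusted p = 0.036) and -1.80 in kidney (difference 1.39, adjusted p = 0.00355).

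Among the helicase subunits, Mcm5 had 1.15 in liver, against 0.30 in brain and 0.18 in kidney (differences 0.85 and 0.97, adjusted p = 0.0279 and 0.0124, limma). Mcm3, Mcm6 and Mcm7 were lower in liver than in kidney (differences -0.57, -0.73 and -1.54). The tissue dependence of Mcm5 ended without liver replicate 1 or 2 and that of Mcm6 without liver replicate 2. That of Mcm3 ended in 10 of the 14 other settings, with an adjusted p of 0.258 when line and column medians were removed. Rfc3 missed the F-test's threshold (adjusted p = 0.0764), as did Psrc1, Gas2l3, Kif20b and Kif18a (adjusted p = 0.833, 0.598, 0.463 and 0.204). Without brain replicate 3, 41 members passed it, all 24 among them. The share of all genes that passed it then is not given here. Calls over all genes rose then in each tissue, as given above, so the 41 are no result about these genes.

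**Figure D4:**
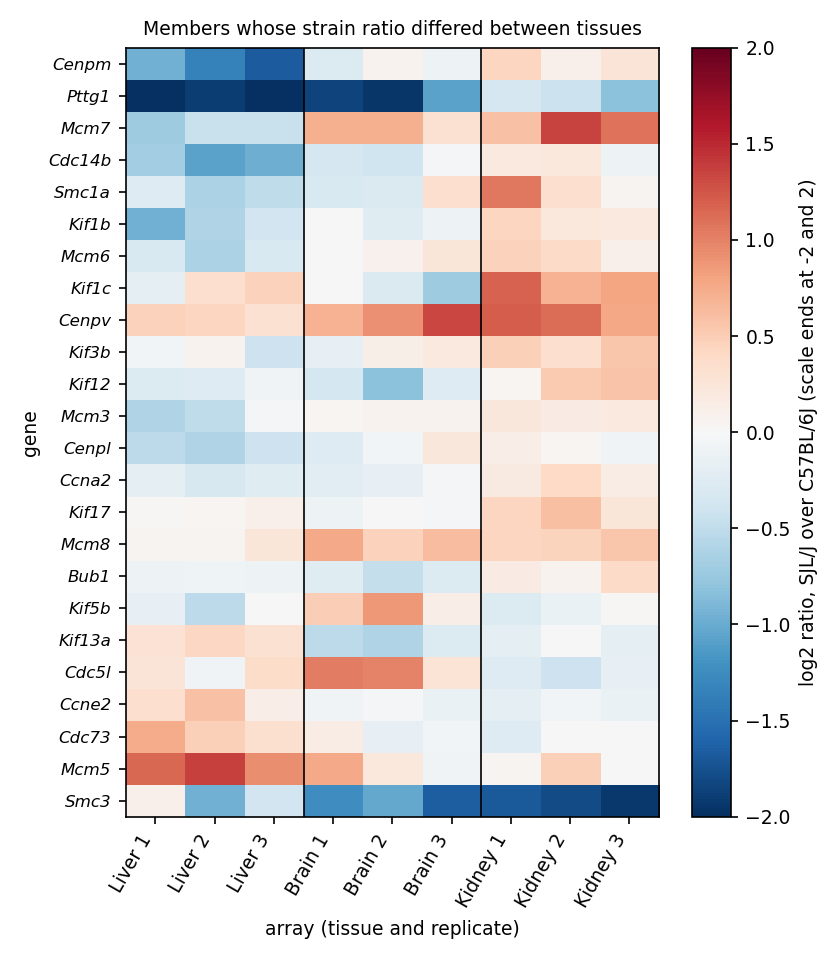
Log2 ratio (SJL/J over C57BL/6J, colour) on each array (columns) for the 24 genes that passed the F-test of tissue dependence (rows, sorted by liver minus kidney). The colour scale ends at -2 and 2. Cenpm, Pttg1 and Mcm7 have the lowest liver minus kidney differences (-1.59, -1.56 and -1.54) and Smc3 the highest (1.39).

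Over the 119 genes, tissue means correlated across genes at r = 0.59 between liver and brain (Spearman 0.50), 0.36 between liver and kidney (0.21) and 0.63 between brain and kidney (0.39), against 0.26, 0.17 and 0.35 over all genes. Leaving out the 9 members with a mean of at least 1 log2 unit in size in some tissue gave 0.40, 0.20 and 0.29 over 110 genes. Genes are not independent replicates, and the tissues share 1 dye orientation, so these values are a description.

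**Figure D5:**
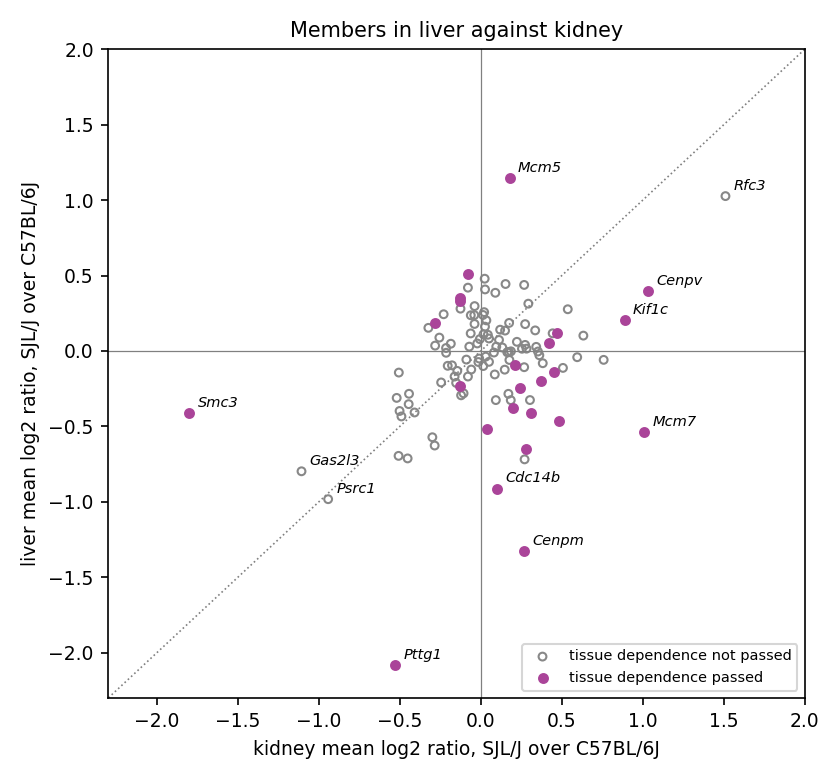
Mean log2 ratio (SJL/J over C57BL/6J) of the 119 genes in liver (y axis) against kidney (x axis), with genes that passed the F-test of tissue dependence in purple and the genes farthest from 0 named. Cenpm (liver -1.33, kidney 0.27) and Mcm7 (-0.54 and 1.01) lie low in liver alone, and Smc3 (-0.41 and -1.80) low in kidney.

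A number of these calls depended on how spots were centred. With the medians of lines and columns of consecutive probe numbers removed, 16 of 28 calls were kept in liver, 19 of 24 in brain and 18 of 28 in kidney. Those that ended were Ccne2, Cdc42, Cdc42ep2, Cenpv, Kif13a, Kif18b, Kif20b, Mcm3, Mcm6, Mcm7, Smc2os and Smc5 in liver, Bub1, Bub3, Cdc42ep4, Kif12 and Mcm3ap in brain, and Cdc42, Cdc42se2, Cdca7l, Cenpo, Kif16b, Kif18a, Kif3c, Orc3, Psrc1 and Smc5 in kidney. Mcm7 then had -0.42 in liver (adjusted p = 0.0727, limma) and Psrc1 -0.69 in kidney (adjusted p = 0.0797). Centring each array on its median gene ended the calls of Cdc42ep4 in brain and of Cdc25c, Kif16b and Kif18a in kidney.

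Probes at multiples of 8 ran low in the whole table. Of 2880, 30.1% were called lower in liver, 27.4% in brain and 50% in kidney, against 7.67%, 4.58% and 2.67% called higher. Of 17 such probes of these genes, 8 were called lower in liver, 5 in brain and 10 in kidney, and 1 was called higher in each. Cdca4, a transcriptional regulator, had -1.24, -2.45 and -2.69 in liver, -3.52, -2.94 and -2.96 in brain, and -3.17, -3.04 and -3.52 in kidney. All 9 arrays were far below 0, and it fell, with means of -2.12 ± 0.78 in liver, -3.14 ± 0.33 in brain and -3.24 ± 0.25 in kidney (adjusted p = 0.000187, 3.1e-05 and 1.54e-05, limma over all 23040 probes). With line and column medians removed it had -1.89 in liver, -2.93 in brain and -2.73 in kidney and still passed in each. Smc1b, the cohesin subunit of meiosis, had -1.38, -0.47 and -1.30 in liver, -1.94, -1.15 and -1.31 in brain, and -1.67, -2.24 and -1.65 in kidney. It fell, with means of -1.05 ± 0.50 in liver, -1.46 ± 0.42 in brain and -1.86 ± 0.34 in kidney (adjusted p = 0.00435, 0.000923 and 0.000136), and had -0.95 in liver, -1.29 in brain and -1.39 in kidney with the medians removed, where each passed.

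Other probes at these numbers depended more on that step. Orc1 fell, with means of -0.67 ± 0.27 in liver, -0.61 ± 0.23 in brain and -0.88 ± 0.05 in kidney, but with medians removed it had -0.21 in liver, -0.39 in brain and -0.40 in kidney and missed the threshold in each (adjusted p = 0.292, 0.069 and 0.0516, limma). Orc5 fell, with means of -0.67 ± 0.08 in liver, -0.76 ± 0.46 in brain and -0.57 ± 0.04 in kidney, and with medians removed had -0.39 in liver, -0.48 in brain and -0.06 in kidney, where kidney missed the threshold (adjusted p = 0.761). Rfc1, the large clamp loader subunit, had 0.86, 1.0 and 0.81 in liver, where it rose (0.89 ± 0.10, adjusted p = 0.0012). In kidney it had -0.61, -0.49 and -0.42 and fell (-0.50 ± 0.10, adjusted p = 0.0197). With medians removed these were 1.17 and -0.07, and the kidney call was lost. Rfc4 had no call. Kif5a, a conventional kinesin of neurons, rose in brain (0.69 ± 0.54, adjusted p = 0.0131), and Ccna1, cyclin A1 of the germ line, rose in kidney (0.41 ± 0.21, adjusted p = 0.0101). Kif1a, a motor of synaptic vesicle precursors, fell in kidney (-1.09 ± 0.23, adjusted p = 0.000174). There the other spots of its line had a median of -0.36, and with medians removed it had -0.39.

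Cdc37l1, Cenpn, Smc6 and Cdca5 also fell in kidney at multiples of 8, with means of -0.86 ± 0.29, -0.72 ± 0.03, -0.53 ± 0.08 and -0.51 ± 0.01. With line and column medians removed these were -0.40, -0.51, -0.05 and -0.28, and the calls of Smc6 and Cdca5 were lost (adjusted p = 0.746 and 0.0536, limma). Cdca5 also fell in brain (-0.30 ± 0.15). Plk3, Kif1a and Smc6 fell in liver, with means of -0.55 ± 0.15, -0.41 ± 0.25 and -0.40 ± 0.20. With medians removed these were -0.28, -0.04 and -0.19, and the calls of Kif1a and Smc6 were lost (adjusted p = 0.855 and 0.223). Smc6 had -0.01 ± 0.19 in liver and 0.08 ± 0.13 in kidney at its other probe, which passed in neither (adjusted p = 0.961 and 0.677, limma). The gene thus had a call only at 1 of its 2 probes.

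Other genes of the same processes were counted from written lists. Of 31 further replication genes, 2 rose and 6 fell in liver (6.45% and 19.4%, against 10.5% and 11.9% of all genes), 0 rose and 3 fell in brain (0% and 9.68%, against 7.73% and 6.62% of all genes), and 3 rose and 5 fell in kidney (9.68% and 16.1%, against 14.1% and 8.05% of all genes), with medians of -0.02 in liver, 0.02 in brain and -0.06 in kidney. Pole2, a subunit of the leading-strand polymerase, fell, with -0.51 ± 0.20 in liver, -0.72 ± 0.09 in brain and -0.94 ± 0.01 in kidney. Pola2, of the polymerase that makes primers, fell, with -0.75 ± 0.06, -0.49 ± 0.31 and -0.45 ± 0.04 in the same order. Rrm2, of ribonucleotide reductase, rose in liver (0.56 ± 0.14) and kidney (0.37 ± 0.18). The adjusted p of these calls lay between 0.000207 and 0.0382 in limma. Of 48 further genes of mitosis, 2 rose and 3 fell in liver (4.17% and 6.25%, against 10.5% and 11.9% of all genes), 4 rose and 2 fell in brain (8.33% and 4.17%, against 7.73% and 6.62% of all genes), and 12 rose and 2 fell in kidney (25% and 4.17%, against 14.1% and 8.05% of all genes), with medians of -0.04 in liver, 0.02 in brain and 0.09 in kidney. Mki67, the marker of cycling cells, was 1 of the 2 that fell in brain (-0.61 ± 0.24) and in kidney (-0.83 ± 0.10). In liver it missed the threshold (-0.31 ± 0.25). Cdk1 had no call in liver, brain or kidney (-0.23 ± 0.13, -0.12 ± 0.07 and 0.03 ± 0.12). Others of the list went the other way, such as Knl1 in brain (0.75 ± 0.26) and Melk in kidney (0.64 ± 0.18), which rose. In kidney Ncaph2, of condensin II, rose (1.23 ± 0.25), as did Mad2l1, of the spindle checkpoint (0.97 ± 0.33), and Spc24, of the kinetochore (0.79 ± 0.46). The adjusted p of these calls lay between 0.00017 and 0.00791.

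Of 36 further genes of G1 control, 4 rose and 2 fell in liver (11.1% and 5.56%, against 10.5% and 11.9% of all genes), 3 rose and 3 fell in brain (8.33% and 8.33%, against 7.73% and 6.62% of all genes), and 8 rose and 3 fell in kidney (22.2% and 8.33%, against 14.1% and 8.05% of all genes), with medians of -0.04 in liver, 0.12 in brain and 0.17 in kidney. Pkmyt1, a kinase that inhibits Cdk1, rose in liver (1.27 ± 0.30) and kidney (1.30 ± 0.49). Gadd45b, of the stress response, rose in liver (0.59 ± 0.06), brain (0.70 ± 0.16) and kidney (0.31 ± 0.10), and Cdkn2b, an inhibitor of Cdk4 and Cdk6, fell in all 3 (-0.57 ± 0.35, -0.56 ± 0.15 and -0.47 ± 0.29). The adjusted p of these calls lay between 0.000526 and 0.0357 in limma. Markers of leukocytes and erythroid cells, which divide or circulate in these organs, were counted too. Of 19 leukocyte markers, 3 rose and 0 fell in liver (15.8% and 0%, against 10.5% and 11.9% of all genes), 2 rose and 1 fell in brain (10.5% and 5.26%, against 7.73% and 6.62% of all genes), and 2 rose and 1 fell in kidney (10.5% and 5.26%, against 14.1% and 8.05% of all genes), with medians of 0.08 in liver, -0.01 in brain and 0.03 in kidney. Of 9 erythroid markers, 3 rose and 2 fell in liver (33.3% and 22.2%, against 10.5% and 11.9% of all genes), 1 rose and 1 fell in brain (11.1% and 11.1%, against 7.73% and 6.62% of all genes), and 1 rose and 1 fell in kidney (11.1% and 11.1%, against 14.1% and 8.05% of all genes), with medians of 0.07 in liver, 0.09 in brain and -0.01 in kidney. In liver Alas2, of heme synthesis in red cell precursors, and the erythropoietin receptor Epor fell (-1.96 ± 0.35 and -0.28 ± 0.11), while Hba-a1, of hemoglobin, the transferrin receptor Tfrc and the anion exchanger Slc4a1 rose (0.83 ± 0.35, 0.74 ± 0.04 and 0.36 ± 0.20). In brain Alas2 rose and Tfrc fell (0.79 ± 0.38 and -0.53 ± 0.09), and in kidney Epb42, of the red cell membrane, rose and Slc4a1 fell (0.62 ± 0.26 and -0.44 ± 0.13). The adjusted p of these calls lay between 5.51e-06 and 0.0414. Their part in the ratios above was not tested.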

How the data were processed

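Liver, brain and kidney RNA pools of SJL/J and C57BL/6J males were compared on 9 arrays. The deposited table held a log2 ratio per spot and array for 23040 spots with 0 missing values. That the base is log2 and that SJL/J is the numerator is likely but not stated: it rests on which strain the titles name first, on the dye of each strain and on the red over green convention of limma. Per the submitters' processing notes, the authors used R 2.0.0 and limma. The sorted values of all arrays were identical, so the authors had equalised the distributions before deposit (median 0.01, range -3.91 to 5.09). Background correction is not given in the sources used here. On kidney and liver arrays the tissue given for channel 1 is brain, and the titles were followed. With no intensities used, dim spots were not filtered, and the precision is limited by the number of arrays.

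Probes of a gene were averaged, leaving out probe numbers that are multiples of 8. Limma 3.58.1 in R 4.3.3 (lmFit, eBayes) was fitted to 13407 genes with 1 coefficient per tissue (6 residual degrees of freedom), two-sided, with Benjamini-Hochberg adjustment over all genes and a threshold of 0.05. Differences between tissues came from contrasts and an F-test of the same fit, the shared ratio from 3 tissue means, and single probes from a fit over 23040 probes. The fit was tested on simulated data. Alternatives were line and column medians removed (lines of 24 consecutive probe numbers, columns being the places within a line), all probes averaged, centring on the median gene, each tissue fitted alone, a replicate block, array weights and each array left out.

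The genes named were, per tissue, the 12 highest and 12 lowest passing members with the same sign on 3 arrays, the 10 lowest F-test p, the members passing the shared test, the 5 highest and 5 lowest passing probes at multiples of 8, up to 4 per role with the largest means, members whose probes disagreed, and Rfc3, Smc3, Pttg1 and Cdca4. Members, lists and tests were chosen with earlier results of these data known, and the examples from the lists after their values were seen. A probe naming both Orc4 and another gene was left out.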

Additional observations from a re-analysis of the deposited data

Results flagged for a closer look

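The strain ratio of 24 genes differed between tissues by limma's F-test, and for each 1 difference between a pair of tissues follows. Lower in liver than in kidney were Cenpm (-1.59), Pttg1 (-1.56), Mcm7 (-1.54), Cdc14b (-1.01), Smc1a (-0.95), Kif1b (-0.93), Mcm6 (-0.73), Cenpv (-0.64), Kif3b (-0.59), Mcm3 (-0.57), Cenpl (-0.55) and Ccna2 (-0.48). Higher in liver than in kidney were Smc3 (1.39), Mcm5 (0.97), Cdc73 (0.60) and Ccne2 (0.48).

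Between liver and brain, Kif13a was higher in liver (0.80), and Kif5b (-0.73) and Mcm8 (-0.50) were lower. Between brain and kidney, Cdc5l was higher in brain (1.04), and Kif1c (-1.22), Kif12 (-0.85), Bub1 (-0.54) and Kif17 (-0.47) were lower. The difference of Kif17 missed the threshold as a single contrast (adjusted p = 0.0597, limma), and the others passed. Many of these genes lost their tissue dependence under some of the 14 other settings. It ended in 10 settings for Smc1a, Ccna2, Mcm3 and Kif17, and in 9 for Bub1, Ccne2 and Mcm8. For Cenpl, Cenpv, Kif3b and Kif5b it ended in 8, for Cdc73 in 5, for Kif12 in 3, for Mcm5 in 2 and for Mcm6 in 1.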

How the results depend on the processing

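No called ratio of a named gene changed sign under the alternatives run. With line and column medians removed, 5 members were higher in liver, against 11, while 19.1% of all genes were called there in either direction, against 22.4%. With all probes averaged, 134 members of 15096 genes were tested, in place of 119 of 13407. Then 22 were lower in kidney, against 12, while 27.4% of all genes were called there in either direction, against 22.1%. The shared test was passed by 4 members, against 0, and by 0.709% of all genes, against 0%. The 15 members added were spotted only at multiples of 8, where 50% of all probes were called lower in kidney. Array weights gave 28 higher and 19 lower in kidney, against 16 and 12, and 42 with tissue dependence, against 24, while 36% of all genes were called in kidney, against 22.1%. The share of all genes with tissue dependence under array weights is not given here. Fitting brain alone left 1 higher and 3 lower, against 10 and 14, and 79 of all genes (0.589%), against 1923. The brain calls left were Rfc3 higher and Pttg1, Smc3 and Psrc1 lower. With each array left out in turn, calls of members higher ranged over 2 to 14 in liver, 5 to 12 in brain and 7 to 24 in kidney, calls lower over 10 to 24, 4 to 14 and 3 to 15, and tissue dependence over 11 to 41. The share of all genes called in either direction then ranged over 12.3% to 28.7% in liver, 4.11% to 18.3% in brain and 9.28% to 29.4% in kidney. Of the members' calls, 8 of 28 in liver, 7 of 24 in brain and 9 of 28 in kidney were kept with each array left out. The cause of these moves was not tested.

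Deviations of same-numbered arrays of different tissues correlated at r = -0.07 to 0.02 over 9 pairs, 0 of them above 0.1. Those of differently numbered arrays correlated at r = -0.12 to 0.14. No deviation shared by number was thus seen, and whether same-numbered arrays shared a batch was not tested. With the replicate block 28 members were called in liver, 20 in brain and 26 in kidney, and 16 with tissue dependence. Of all genes 20.6%, 11.6% and 19.7% were then called in liver, brain and kidney, against 22.4%, 14.3% and 22.1%. The share of all genes with tissue dependence is not given for this setting. Technical arrays of 1 pool per strain, 1 dye orientation and the lack of intensities limit all results.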
